A study of Mus musculus with 60 samples.

Results

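Pools of fetal mouse brain RNA differed in how much signal they carried from the caudal end of the brain. The 20 arrays with the highest signal for Hoxa5, a homeobox gene of the caudal hindbrain and spinal cord, were set against the 20 with the lowest, out of 60 arrays in all. The arrays were thus chosen by the log2 value of 1 gene, measured on the same arrays. The remaining 20 arrays formed a middle class. The arrays came from fetuses of wild type mice (WT), Pon1 knockout mice (KO), and 2 transgenic lines that carry human PON1, as its Q192 form (tgHuPON1Q192, Q-tg) or its R192 form (tgHuPON1R192, R-tg), all on a B6.129 background. Pregnant dams were given chlorpyrifos oxon (CPO), the active form of an organophosphate insecticide, on gestational days 6 to 17 (12 days), and fetal brains were taken on day 18. CPO was given at 0, 0.75 or 0.85 mg/kg/d, and in KO at 0, 0.50 or 0.75 mg/kg/d, which makes 12 labelled groups of 5 arrays. Each array carried the combined RNA of 1 dam's fetuses, so the dam is the replicate, and dams had been drawn at random from those whose brain acetylcholinesterase activity was not outlying. The promoter that drives the transgenes, and whether the transgenic mice keep mouse Pon1, were not given in the sources used here.

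Hox genes lie in 4 clusters, and their order along a cluster, given by the paralog number, follows the order of their front limits of expression from the hindbrain to the tail end of the spinal cord. Low paralog numbers begin in the rostral hindbrain, middle ones near the hindbrain and spinal cord border, and the highest in the lumbar and sacral cord, while the forebrain and midbrain lack Hox expression. Neurons that use glycine as inhibitory transmitter are concentrated in the hindbrain and spinal cord, and the transporter Slc6a5 (GlyT2) marks them. In bulk RNA of a whole brain fewer cells of a type and less RNA per cell cannot be told apart.

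Hoxa5 ran from 5.78 to 8.28 on the log2 scale. It was at most 6.78 in the Hoxa5-low arrays (median 6.33), between 6.81 and 7.37 in the middle arrays (median 7.12), and at least 7.51 in the Hoxa5-high arrays (median 7.84). The arrays just inside and outside the limits lay 0.037 log2 units apart at the lower limit and 0.141 at the upper, so the classes are stretches of a continuous range. The means of the high and low classes differed by 1.60 log2 units, or 3.03-fold. This value follows from the ranking and was given no test.

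The classes mixed the labelled groups. Of the 20 Hoxa5-high arrays 7 were labelled WT, 6 R-tg, 5 Q-tg and 2 KO, and of the 20 Hoxa5-low arrays 6 were labelled KO, 6 R-tg, 5 Q-tg and 3 WT. CPO dose 0 contributed 4 arrays to either extreme class and 12 to the middle. The classes were uneven in Pon1 itself, the gene of the blood enzyme that hydrolyses CPO. Pon1 was low (below 7.5) in 15 arrays, of which 10 were labelled KO and 5 were not, while 5 arrays labelled KO had it high. Directions between genotypes are therefore directions between labels. Of the 15 low Pon1 arrays 0 were Hoxa5-high, 5 middle and 10 Hoxa5-low. The main results are therefore given also for the 45 arrays with high Pon1, of which 20 were Hoxa5-high and 10 Hoxa5-low. Any pair of arrays correlated between 0.9865 and 0.9984, and the lower quartile of the signal was 6.10 ± 0.085 (SD, n = 20) in Hoxa5-high and 6.10 ± 0.062 (SD, n = 20) in Hoxa5-low arrays.

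**Figure D1:**
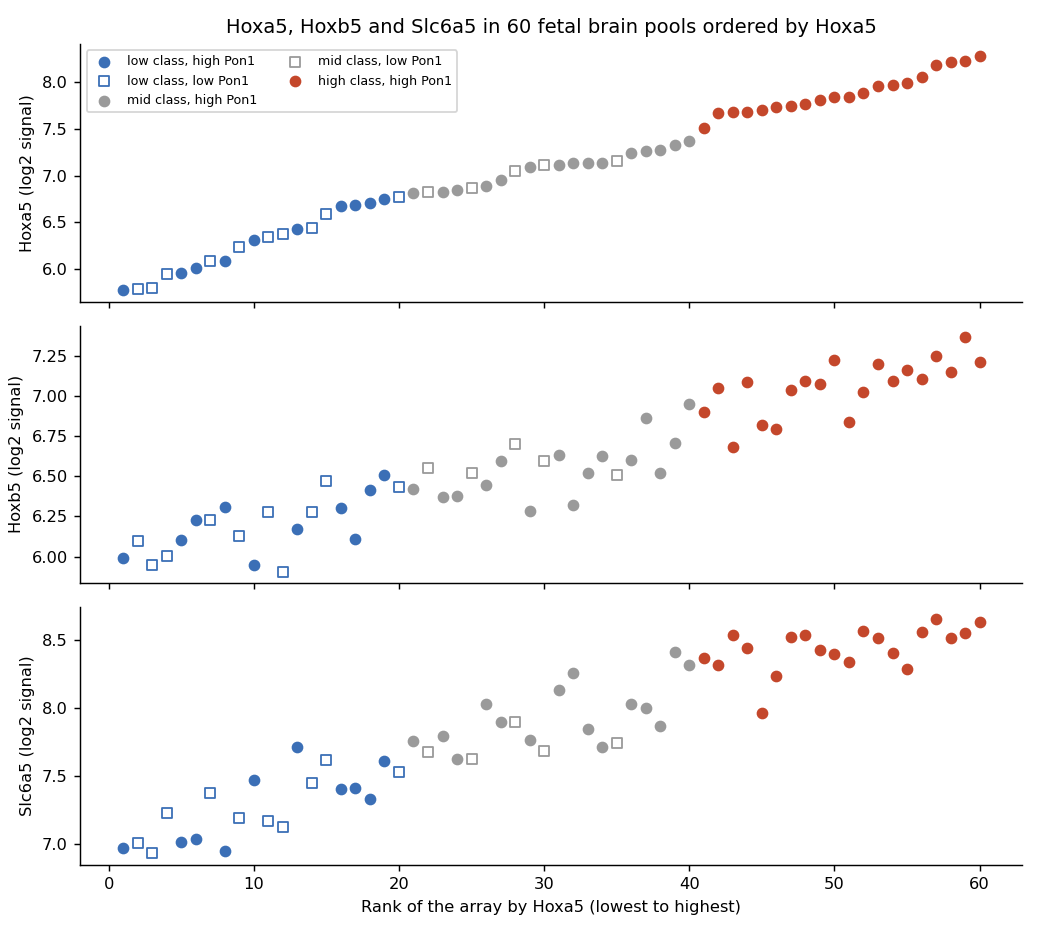
Hoxa5, Hoxb5 and Slc6a5 log2 signals (y axes) of the 60 arrays, ordered on the x axis by Hoxa5 rank, with class by colour and arrays of low Pon1 as open squares. Hoxb5 and Slc6a5 climb along the same order through the middle class, and none of the Hoxa5-high arrays is an open square.

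Hoxb5, the Hoxb cluster's counterpart of Hoxa5, and Slc6a5 separated the extreme classes completely. Hoxb5 lay between 6.68 and 7.37 in Hoxa5-high arrays (median 7.09), between 6.29 and 6.95 in the middle (median 6.54) and between 5.91 and 6.51 in Hoxa5-low arrays (median 6.20). The lowest Hoxa5-high array was thus above the highest Hoxa5-low array, with a difference of class means of 0.87 ± 0.05 (SE, 20 against 20 arrays), 1.82-fold. Slc6a5 lay between 7.96 and 8.66 in Hoxa5-high arrays (median 8.48), between 7.62 and 8.42 in the middle (median 7.85) and between 6.93 and 7.71 in Hoxa5-low arrays (median 7.28). Its classes did not overlap at the extremes either, and the class means differed by 1.17 ± 0.07 (SE), 2.25-fold. Both genes had been taken as markers of this ranking with earlier results known, so these values are a description. With the 45 arrays of high Pon1 the differences were 0.85 and 1.15.

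The order of the arrays was much the same by any of these 3 genes. Ranking by Hoxb5 put 18 of the 20 Hoxa5-high and 16 of the 20 Hoxa5-low arrays in the same class, and ranking by Slc6a5 put 18 and 19 there. By neither ranking did an array move from one extreme class to the other. Hoxa5 itself differed by 1.51 ± 0.10 (SE) between arrays ranked by Hoxb5 and by 1.54 ± 0.10 between arrays ranked by Slc6a5. Over the 60 arrays Hoxb5 and Slc6a5 correlated with Pearson's r = 0.90 and Spearman's rho = 0.90, and r was 0.89 without the 2 arrays farthest from the median of Hoxb5 and 0.87 within the 45 arrays of high Pon1 (permutation p = 1e-05, the smallest that 100000 permutations can give, adjusted over 13 pairs 2.6e-05). Both genes had been taken as markers with earlier results known, so this p is a description and no independent test.

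Across all genes, 514 rows of the array, of which most stand for a gene each, were higher in Hoxa5-high arrays and 648 were lower, by limma at an adjusted p under 0.05. These are 2.36% and 2.97% of the 21788 rows tested, 5.33% in all. Since the classes were made from these same arrays, a call means association with the Hoxa5 ranking and no more. The median difference over all genes was -0.0095. Non-overlapping classes were rarer, with 13 rows entirely higher (0.0597%) and 1 entirely lower (0.00459%). Without the arrays of low Pon1, 176 rows were higher (0.808%) and 27 lower (0.124%), and these include 167 of the 514 and 25 of the 648. The direction was kept there by 511 of the 514 higher and 643 of the 648 lower rows.

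The largest difference among the higher genes, that of Pon1, did not stand without the low Pon1 arrays. Pon1 was 2.33 ± 0.55 (SE) higher in the Hoxa5-high class, where it ran from 9.72 to 10.14 (median 9.98), against 4.84 to 10.11 (median 7.75) in Hoxa5-low arrays. The Hoxa5-low class thus spanned the whole range of Pon1, and with the 45 high Pon1 arrays the difference was 0.02 (adjusted p = 0.985). For Pon1 that outcome was fixed in advance, since the arrays had been left out by their Pon1 level. Trim12a, a gene of the tripartite motif family, went from 0.67 to 0.10 without the low Pon1 arrays (adjusted p = 0.906). The 13 other leading genes were Slc6a5, Lamp5, Hoxb5, Hoxa2, Mab21l2, Glra1, Hoxb3, Sncg, Hoxd3, Hoxb2, Hoxc5, Aqp4 and Pla2g7, and all 13 were called also without those arrays, with differences between 0.36 and 1.15.

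**Figure D2:**
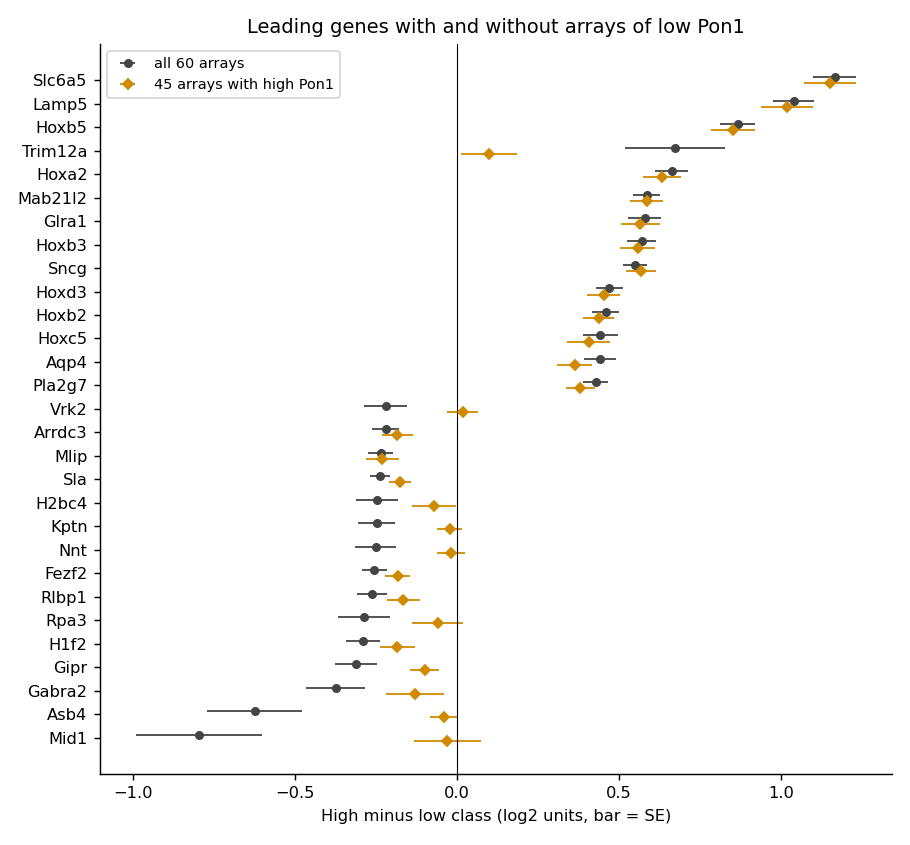
Log2 difference, Hoxa5-high minus Hoxa5-low (x axis, bars are SE), for leading higher and lower genes, in all 60 arrays (circles) and in the 45 arrays of high Pon1 (diamonds). Pon1, at 2.33 and 0.02, is left off the scale. Slc6a5, Lamp5 and the Hox genes keep their place, while Trim12a (0.10), Mid1, Asb4, Kptn, Nnt and Vrk2 come to lie near 0.

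Lamp5, which encodes a lysosome-associated membrane protein of neurons, followed Hoxa5 nearly as closely as Slc6a5. It ran from 8.18 to 8.76 in Hoxa5-high arrays (median 8.51) and from 6.73 to 7.93 in Hoxa5-low arrays (median 7.45), with no overlap and a difference of 1.04 ± 0.06 (SE), 2.06-fold. The gamma-synuclein gene Sncg ran from 8.84 to 9.21 (median 9.08) against 8.24 to 8.74 (median 8.54), again with no overlap, and differed by 0.55 ± 0.04. Mab21l2, a developmental regulator, ran from 9.28 to 9.57 (median 9.45) against 8.53 to 9.19 (median 8.84). Its classes were also apart, with a difference of 0.59 ± 0.04. The 10 genes whose signal was most like that of Hoxa5 over the 60 arrays, by Pearson's r from 0.86 to 0.95, were Slc6a5, Lamp5, Hoxb5, Sncg, Mab21l2, Hoxb3, Hoxa2, Glra1, Sv2c and Prph, and of these Glra1 alone had overlapping classes. Sv2c encodes a synaptic vesicle protein and Prph the intermediate filament peripherin of motor and peripheral neurons. The other genes without overlap were Hoxb2, Meis1, Nefm and Folh1, and Folh1, which encodes a glutamate carboxypeptidase, was named after its values had been seen.

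The Hox genes were measured at 36 loci beside Hoxa5, and 12 were called higher and 0 lower. The shares over all rows were 2.36% higher and 2.97% lower. The Hox calls lay in a block of paralog numbers. Of the 14 genes of paralogs 2 to 6, 12 were called, while 0 of the 2 genes of paralog 1 and 0 of the 20 genes of paralogs 7 to 13 were, the latter with 0 at an unadjusted p under 0.05 in limma. Paralogs 1 to 4 had a median difference of 0.34 and paralogs 5 to 8 of 0.10, against -0.0080 for paralogs 9 to 13 and -0.0095 over all genes. Many of the posterior genes were dim, with a mean below 6.54, the level under which 95% of olfactory receptor rows lie. That held for 17 of the 20 genes of paralogs 7 to 13, so a difference among them might not have been detectable, but also for 6 of the 12 genes that were called.

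Hoxa2, which patterns the rostral hindbrain, had the largest difference of the Hox genes after Hoxb5. It ran from 6.51 to 7.02 in Hoxa5-high arrays (median 6.75) and from 5.80 to 6.33 in Hoxa5-low arrays (median 6.12), and differed by 0.66 ± 0.05 (SE). Hoxb3 ran from 7.86 to 8.30 (median 8.02) against 7.14 to 7.77 (median 7.47), with a difference of 0.57 ± 0.04. In neither gene did the classes overlap. Hoxd3 was higher by 0.47, Hoxb2 by 0.46, Hoxc5 by 0.44, Hoxa6 by 0.38, Hoxb4 by 0.37, Hoxc4 by 0.34, Hoxa3 by 0.34, Hoxa4 by 0.28 and Hoxb6 by 0.16. All clusters were represented, with 4 of 9 genes called in Hoxa, 5 of 9 in Hoxb, 2 of 9 in Hoxc and 1 of 9 in Hoxd. Without the low Pon1 arrays 11 of the 12 calls remained, and Hoxb6 (0.07) was not called.

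**Figure D3:**
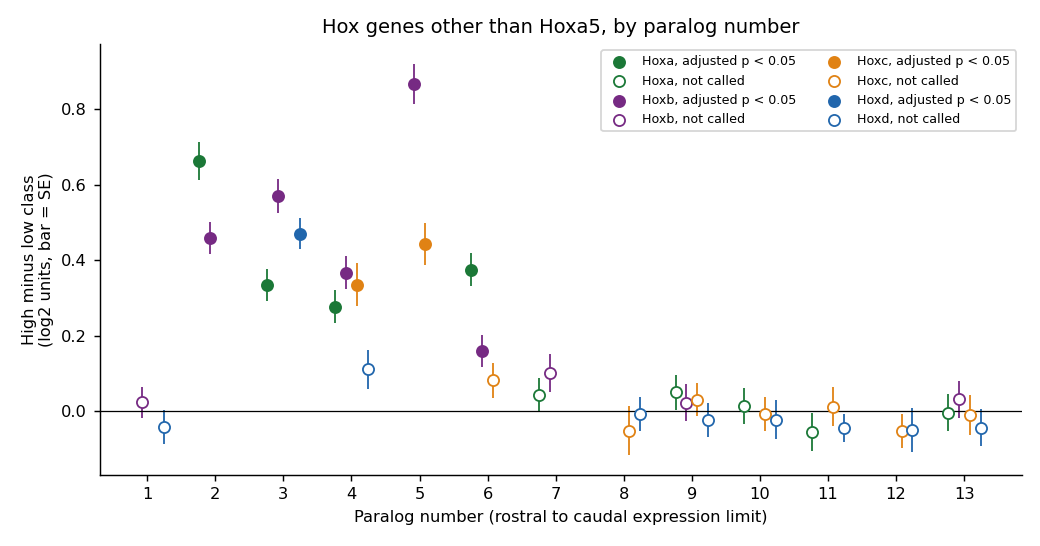
Log2 difference, Hoxa5-high minus Hoxa5-low (y axis, bars are SE), of the 36 Hox genes other than Hoxa5 against paralog number (x axis), coloured by cluster and filled where the adjusted p was under 0.05. The filled points lie at paralogs 2 to 6, from 0.16 to 0.87, and paralogs 8 to 13 lie around 0.

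Hox proteins bind DNA together with partners of the Pbx and Meis families. Of the 8 measured partner genes, Meis1 alone was called. It ran from 8.99 to 9.35 in Hoxa5-high arrays (median 9.13) and from 8.40 to 8.98 in Hoxa5-low arrays (median 8.81), without overlap, and differed by 0.38 ± 0.04 (SE). Pknox2 (-0.06), Pbx2 (-0.06) and Pbx4 (-0.04) were not called. Hox expression in the hindbrain is set up by retinoic acid, and 2 of 17 measured genes of that pathway were called higher, the binding protein gene Crabp1 (0.16) and the degrading enzyme gene Cyp26b1 (0.12). Over all rows 2.36% were called higher. In the high Pon1 arrays alone Crabp1 was called and Cyp26b1 was not (0.11, adjusted p = 0.26). The synthetic enzyme genes Aldh1a1, Aldh1a2 and Aldh1a3 had -0.10, 0.08 and 0.03 (adjusted p = 0.056, 0.22 and 0.67). Aldh1a2 and Aldh1a3 were named after their values were seen.

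Since the leading genes moved together, the 250 bases before their starts were searched on both strands for the Hox and Pbx motif TGATTNAT and the Meis motif TGACAG, which do not overlap each other. RefSeq promoter sequences (GRCm38.p6) were searched for 8 of the 14 leading genes, Hoxa5 included, and a match was found in Slc6a5 and Hoxa2. This search of the leading genes did not cover every chromosome. The windows of 30 bases read 5′ to 3′ on the gene's strand, with the match in capitals, and show where the letters lie in the leading genes.
Slc6a5, chr7:49910195-49910224, plus strand: caaaggggtaaTGATTTATcaaacgtgtat
Slc6a5, another start, chr7:49911450-49911479, plus strand: CTGTCAaaacccactcattcttcggtctta
Hoxa2, chr6:52164924-52164953, minus strand: gacttttttggATCAATCAaacagacagtg
Hoxa2, chr6:52164858-52164887, minus strand: gaagcaatcatgTGACAGccaattcggtcc
Of 32851 promoters searched over the same length, 2.82% held TGATTNAT and 15.9% held TGACAG. The matches are matches of letters alone, and binding was not measured.

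Genes of glycine transmission were called on both sides of the synapse. Of 9 measured, 4 were called higher and 0 lower (median 0.10), and 3 of these were called without the low Pon1 arrays. For this and the following lists, the shares over all rows were 2.36% higher and 2.97% lower. Without the low Pon1 arrays they were 0.808% and 0.124%. Slc6a5, 1 of the 4 glycine genes, had been taken as a marker of the ranking. The others were Glra1, the adult alpha subunit of the glycine receptor, the glial transporter Slc6a9 (0.17) and the receptor's beta subunit Glrb (0.10). Glrb was named after its value was seen and was the 1 not called without the low Pon1 arrays (adjusted p = 0.54). Glra1 ran from 7.15 to 7.84 in Hoxa5-high arrays (median 7.47) and from 6.60 to 7.17 in Hoxa5-low arrays (median 6.92). It overlapped by a single Hoxa5-high array, with 19 of 20 above every Hoxa5-low array, and differed by 0.58 ± 0.05 (SE), 1.49-fold. Glra3, another alpha subunit, had 0.13 (adjusted p = 0.12).

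Transcription factors of hindbrain and spinal cord interneurons included 5 called higher and 0 called lower of 22 (median 0.045). In this list 8 of the 22 lay below 0. Sox14 (-0.08) and Gata3 (-0.06), named after their values were seen, were furthest below and were not called. Without the low Pon1 arrays the median was 0.011. There 4 of the 5 were called, Prrxl1 was not (adjusted p = 0.28), and Dmbx1 was called in addition (0.13, named after its value was seen). Pax2, a factor of inhibitory interneurons, ran from 7.29 to 7.74 (median 7.51) against 6.80 to 7.37 (median 7.11). A total of 18 of its 20 Hoxa5-high arrays were above every Hoxa5-low array, and the difference was 0.37 ± 0.04 (SE). Skor1, a corepressor of dorsal cord neurons, differed by 0.41, Pax8 by 0.31 and Prrxl1, a factor of sensory relay neurons, by 0.15.

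Genes of motor and branchial motor neurons followed, with 8 of 18 called higher and 1 lower (median 0.059), and 8 and 0 without the low Pon1 arrays. The largest differences were those of intermediate filaments, which fill long and thick axons. Nefm, the medium neurofilament, ran from 8.98 to 9.30 in Hoxa5-high arrays (median 9.13) and from 8.55 to 8.92 in Hoxa5-low arrays (median 8.83), and Prph ran from 7.71 to 8.06 (median 7.85) against 7.15 to 7.59 (median 7.47). In both the classes were apart, by 0.35 ± 0.03 (SE) and 0.43 ± 0.04. The heavy neurofilament Nefh was higher by 0.33 and Tbx20, a factor of branchial motor neurons, by 0.32. The 1 lower member was Isl1 (-0.10), which is also a gene of striatal neurons and was named after its value was seen. The 9 members not called included Chat (0.02), Phox2a (0.02), Mnx1 (0.02) and Isl2 (-0.06), all named after their values were seen. Prph led the list of peripheral ganglia as well, of which 4 of 15 were called higher and 0 lower (median 0.011). The other 3 called were Dbh (0.17), the noradrenaline enzyme, P2rx3 (0.15), a receptor of sensory neurons, and Mpzl2 (0.15). Without the low Pon1 arrays Mpzl2 was not called (adjusted p = 0.065). In this list 6 of the 15 lay below 0, among them Th (-0.05) and Hand2 (-0.04), both named after their values were seen. Of 7 genes of serotonin neurons, which sit in the hindbrain raphe, 1 was called, the cofactor enzyme gene Gch1 (0.15; adjusted p = 0.089 without the low Pon1 arrays), and Slc6a4, the serotonin transporter that defines them, had 0.06 (adjusted p = 0.28).

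**Figure D4:**
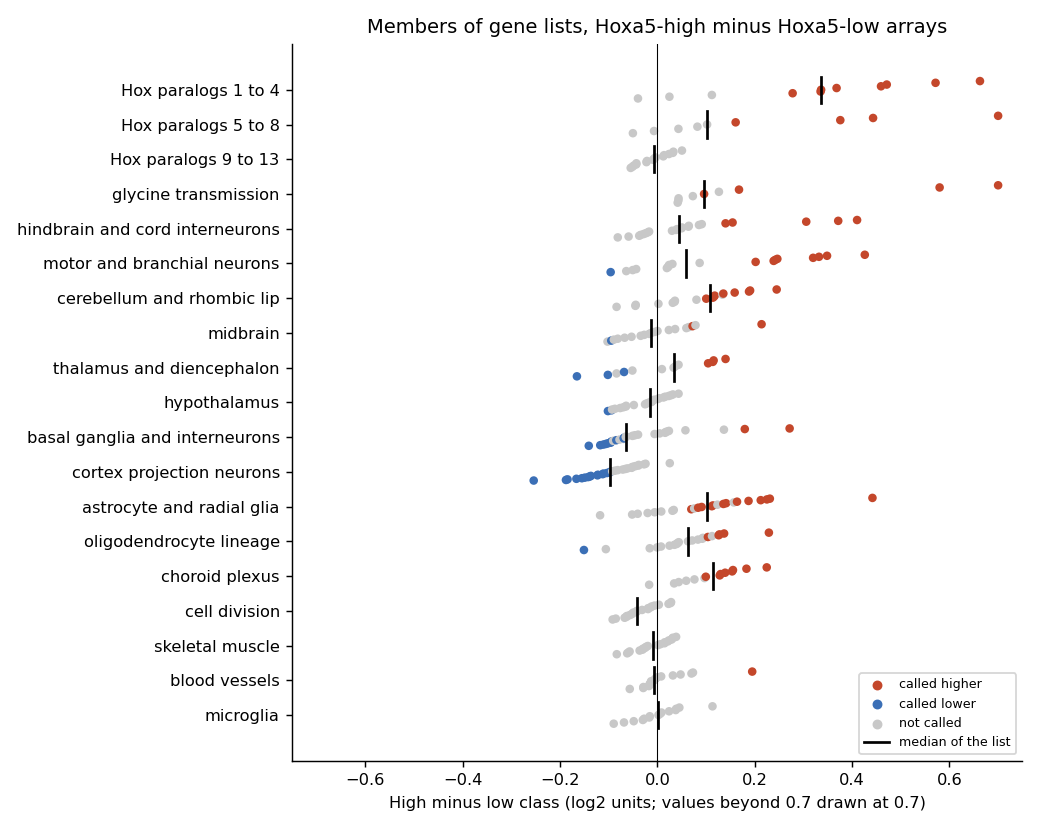
Log2 difference, Hoxa5-high minus Hoxa5-low (x axis), of the members of 19 gene lists (rows), coloured where called higher or lower, with the median of each list as a bar. Called points lie mostly to the right in the caudal lists and mostly to the left in cortex and basal ganglia, muscle and microglia have none, and values beyond 0.7 are drawn at 0.7.

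On the other side stood genes of the cerebral cortex. Of 31 genes of cortical projection neurons 0 were called higher and 16 lower, with a median of -0.097 against -0.0095 over all genes, and 30 of the 31 were below 0. Without the low Pon1 arrays 5 were called lower (median -0.086). Fezf2, which specifies corticospinal neurons, ran from 9.25 to 9.55 in Hoxa5-high arrays (median 9.40) and from 9.43 to 9.89 in Hoxa5-low arrays (median 9.62). The classes overlapped, with 15 of 20 Hoxa5-high arrays below every Hoxa5-low array. The difference was -0.25 (SE 0.04), and -0.18 without the low Pon1 arrays. Emx2, a patterning gene of the cortex, had -0.19, Neurog2, a factor of cortical progenitors, -0.18 and Neurod6, a factor of cortical excitatory neurons, -0.17. Of these, Fezf2 and Neurod6 were called without the low Pon1 arrays and Emx2 and Neurog2 were not.

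Genes of the basal ganglia and of forebrain interneurons split. Of 29, 11 were called lower and 2 higher (median -0.065). In the high Pon1 arrays alone 3 were called lower and 2 higher, Dlx6 being 1 of the lower and not called before (named after its value was seen). Dlx2, a factor of the ganglionic eminences, ran from 9.09 to 9.32 in Hoxa5-high arrays (median 9.25) and from 9.14 to 9.57 in Hoxa5-low arrays (median 9.36). Its classes overlapped widely at a difference of -0.14 (SE 0.03), and it was not called without the low Pon1 arrays (adjusted p = 0.0735). The 2 higher members were Penk (0.27), the enkephalin precursor, and Ebf1 (0.18), and both are also made outside the striatum. In the hypothalamus 0 of 24 were called higher and 2 lower, Six3 (-0.10) and Lhx8 (-0.09), and neither was called without the low Pon1 arrays (adjusted p = 0.90 and 0.60). In thalamus and diencephalon 4 of 13 were called higher and 3 lower, with Prox1 at -0.17 and Lhx1 at 0.14. Without the low Pon1 arrays 2 were called higher and 0 lower, Lhx1 among the former, and Prox1 was not called (adjusted p = 0.15). In the midbrain 2 of 19 were called higher and 1 lower, with Pax3 at 0.21 and Nr4a2, a factor of dopamine neurons, at -0.09. Pax3 alone was called without the low Pon1 arrays, where Nr4a2 had an adjusted p of 0.060. Beside these counts, 2.36% of all rows were called higher and 2.97% lower.

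The 10 genes whose signal ran most against Hoxa5 (r from -0.73 to -0.63) were Sla, Mpped1, Fezf2, Nr2e1, Zbtb18, Ldb2, Enc1, Neb, Dlx1 and Prox1, and 9 of them were called lower without the low Pon1 arrays. Mpped1, which encodes a phosphoesterase of the brain, was the 1 row with wholly lower levels, from 10.41 to 10.67 in Hoxa5-high arrays (median 10.60) against 10.67 to 10.87 in Hoxa5-low arrays (median 10.75). The gap was narrow and the difference small, at -0.18 (SE 0.02). Sla, a Src-like adaptor gene, ran from 9.66 to 9.99 (median 9.84) against 9.95 to 10.19 (median 10.07), with 17 of 20 Hoxa5-high arrays below every Hoxa5-low array and a difference of -0.24 (SE 0.03). Nr2e1, a receptor of forebrain neural stem cells, had -0.19, and Zbtb18, a repressor of cortical neurons, -0.16. The differences of these 10 genes lay between -0.25 and -0.09, and those of the 10 genes most like Hoxa5 between 0.38 and 1.17.

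The largest negative differences shrank without the low Pon1 arrays. Mid1, an X-linked ubiquitin ligase gene, had -0.80 (SE 0.19), Asb4, an ankyrin repeat gene, -0.62 (SE 0.15), and the receptor subunit gene Gabra2 -0.37 (SE 0.09). Mid1 ran from 8.37 to 10.67 in Hoxa5-low arrays and from 8.39 to 9.04 in Hoxa5-high arrays, so the Hoxa5-low class held high and low levels together. With the 45 arrays of high Pon1 the 3 genes had -0.03, -0.04 and -0.13, none of them called. Of the 15 leading lower genes, 4 were called there, Fezf2, Sla, Mlip and Arrdc3. The other lower genes in this lead group were Gipr, H1f2, Rpa3, Rlbp1, Nnt, Kptn, H2bc4 and Vrk2.

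Markers of further tissues moved with the classes. In the cerebellum and rhombic lip, 9 of 18 genes were called higher and 0 lower (median 0.11), with Atoh1 (0.24), the factor of rhombic lip progenitors, Cbln1 (0.19), Mab21l1 (0.19) and Zic1 (0.16), and the first 3 of these were the ones called without the low Pon1 arrays. The mean log2 signal over that list ran from 8.29 to 8.39 in Hoxa5-high and from 8.15 to 8.36 in Hoxa5-low arrays. In the choroid plexus 8 of 14 were called higher (median 0.11; 7 without the low Pon1 arrays), led by the potassium channel gene Kcnj13 (0.22), Clic6 (0.18), Sostdc1 (0.16) and Lbp (0.15), and the list mean ran from 8.01 to 8.17 against 7.87 to 8.11. Both lists overlapped between the classes. The choroid plexus covers the hindbrain ventricle as well as the forebrain ones, and the part of it or of the cerebellum in the Hox difference was not tested.

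Some glial genes were called higher. Of 24 genes of astrocytes and radial glia 13 were called higher and 0 lower (median 0.10; 9 without the low Pon1 arrays). The other 11 included Nes (-0.12), Sox9 (-0.006), Vim (0.008) and Fabp7 (0.03), all named after their values were seen. In all, 19 members lay above 0 and 5 below. Aqp4, the water channel of astrocyte endfeet, ran from 8.36 to 9.005 in Hoxa5-high arrays (median 8.76) and from 7.98 to 8.49 in Hoxa5-low arrays (median 8.32). A total of 18 of 20 Hoxa5-high arrays were above every Hoxa5-low array, and the difference was 0.44 ± 0.05 (SE). Aldoc was higher by 0.23, Apoe by 0.22 and the GABA transporter gene Slc6a11 by 0.21. In the oligodendrocyte lineage 5 of 21 were called higher and 1 lower (median 0.063), the former with Bcas1 (0.23), Cnp (0.14) and Gpr17 (0.13) and the latter Ermn (-0.15). Without the low Pon1 arrays 2 were called higher and 0 lower, and Cnp, Gpr17 and Ermn (adjusted p = 0.17, 0.27 and 0.25) were no longer among them. Mbp, the myelin basic protein gene, ran from 7.81 to 8.12 (median 7.96) against 7.71 to 7.92 (median 7.84), and the classes overlapped at a difference of 0.13.

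In several lists no gene was called. No member of the lists of pituitary (14), skeletal muscle (20), cartilage, bone and skin (18), microglia (15) or cell division (21) was called by limma, and 0, 1, 0, 2 and 4 of them in that order had an unadjusted p under 0.05. Since 5.33% of all rows were called, 0 calls in a list of this size do not set it apart. In the cell division list 17 of 21 lay below 0 (median -0.042), as did 11630 of 19937 over all genes, Mcm3 being furthest at -0.09 (adjusted p = 0.069). The growth hormone gene Gh ran from 6.42 to 10.11 in Hoxa5-high and from 6.75 to 10.43 in Hoxa5-low arrays, and differed by -0.65 with an SE of 0.44. Of blood vessel genes 1 of 19 was called, the transporter gene Slco1a4 (0.19), and of meningeal genes 3 of 18, with Zic1 and Slc13a4 (0.14) named here. The count for blood vessels is close to the 5.33% of all rows, and without the low Pon1 arrays 0 genes of either list were called by limma (adjusted p = 0.057 for Slco1a4, 0.0515 for Zic1 and 0.49 for Slc13a4). Among paraoxonases and cholinesterases, Ache (0.15) and Bche (0.13) were called beside Pon1, and Ache alone was called without the low Pon1 arrays. Ache encodes the enzyme that CPO inhibits and is a product of cholinergic neurons, among others.

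Pairs of genes other than Hoxa5 were compared over the 60 arrays. Hoxb5 and Slc6a5 order the arrays much as Hoxa5 does. The correlations and p-values of these pairs thus describe the same ranking and are no independent test of it. Hoxb5 correlated with Neurod6 at r = -0.56 (rho = -0.62), with Dlx2 at r = -0.55 (rho = -0.52) and with Tcf7l2, a thalamic factor, at r = -0.47 (rho = -0.44). It correlated positively with Mbp, at r = 0.53 (rho = 0.53), and with Ttr, the transthyretin gene of the choroid plexus, at r = 0.52 (rho = 0.51). Permutation p-values for r, adjusted over 13 pairs, ran from 2.6e-05 to 0.00017 for these 5, and r without the 2 farthest arrays was -0.55, -0.49, -0.41, 0.50 and 0.49. Within the 45 arrays of high Pon1, r was -0.57, -0.62, -0.43, 0.55 and 0.49. With En1, a factor of the midbrain and hindbrain border, Hoxb5 had r = -0.16 (rho = -0.15, adjusted permutation p = 0.24). With Gh it had r = -0.30 (rho = -0.35, adjusted permutation p = 0.022), but -0.15 within the high Pon1 arrays. Slc6a5 gave r = -0.55 with Neurod6, -0.51 with Dlx2, -0.42 with Tcf7l2 and 0.62 with Mbp, with adjusted permutation p from 2.6e-05 to 0.0011 (rho -0.61, -0.51, -0.41 and 0.62, r without the 2 farthest arrays -0.57, -0.49, -0.39 and 0.62, within the high Pon1 arrays -0.53, -0.54, -0.37 and 0.65). With En1 it had r = -0.069 (rho = -0.10, adjusted permutation p = 0.60).

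The slope on Hoxa5 was also fitted within the 20 middle arrays, whose means are not in the difference of high and low classes. They did enter the estimate of spread behind its calls. Among them Hoxa5 spanned 6.81 to 7.37. No row passed limma for a slope on Hoxa5 at an adjusted p under 0.05, and 1004 of 21788 had an unadjusted p under 0.05, of which 751 rose (3.45%) and 253 fell (1.16%). Of the 13 leading higher genes other than Pon1 and Trim12a, all 13 had a slope above 0, and 11 had an unadjusted p under 0.05. Slc6a5 had a slope of 0.81 ± 0.22 (SE) log2 units per unit of Hoxa5 (unadjusted p = 0.0012, adjusted p = 0.94), Hoxb5 0.56 ± 0.17 (unadjusted p = 0.0031, adjusted p = 0.94) and Glra1 0.54 ± 0.15 (unadjusted p = 0.0019, adjusted p = 0.94). Of the 15 leading lower genes, 14 had a slope below 0, and 5 of these an unadjusted p under 0.05. Of all rows 13218 of 21788 had a slope above 0, as had 454 of the 514 rows called higher, while 511 of the 648 rows called lower had a slope below 0.

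Slc6a5 and Hoxb5 differed between the classes within each labelled genotype. Slc6a5 was higher in Hoxa5-high arrays by 1.21 ± 0.18 (SE) in KO, 1.15 ± 0.14 in Q-tg, 1.04 ± 0.13 in R-tg and 1.21 ± 0.15 in WT. Hoxb5 was higher by 0.91 ± 0.14, 0.80 ± 0.11, 0.89 ± 0.10 and 0.86 ± 0.12 in the same order. Numbers of arrays were small, with 2 Hoxa5-high arrays in KO and 3 Hoxa5-low arrays in WT. Fezf2 had -0.35, -0.19, -0.18 and -0.30, none of which was called. No row passed limma for a difference between KO, Q-tg or R-tg and WT in this contrast. Of 21788 rows, 751, 1066 and 5188 in that order had an unadjusted p under 0.05. The count for R-tg was by far the largest, and its cause was not tested.

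The ranking did not use the labels, and the labelled groups were compared for the caudal genes on their own. Within labelled groups the SD of Hoxa5 ran from 0.205 in KO at dose 0 to 0.978 in WT at 0.75 mg/kg/d (n = 5 each). The difference of a CPO dose from dose 0 ran from -0.69 in R-tg at 0.75 to 0.80 in Q-tg at 0.75 (SE 0.42). For Hoxb5 it ran from -0.42 in KO at 0.50 to 0.48 in Q-tg at 0.75 (SE 0.24), and for Slc6a5 from -0.67 in R-tg at 0.75 to 0.61 in Q-tg at 0.75 (SE 0.30). None of these passed limma, in which 0 rows (0%) were called in any of the 8 dose contrasts and 400 to 2216 rows had an unadjusted p under 0.05. The doses of a genotype share their dose 0 arrays. The 5 arrays of KO at 0.50 lay between 5.79 and 7.15 for Hoxa5, with 4 in the Hoxa5-low class, all 5 having low Pon1, and those of Q-tg at 0.75 between 6.85 and 7.97, with 0 in that class. KO at 0.75, Q-tg at 0.85, R-tg at 0.75 and 0.85, and WT at 0, 0.75 and 0.85 held arrays of both extreme classes.

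**Figure D5:**
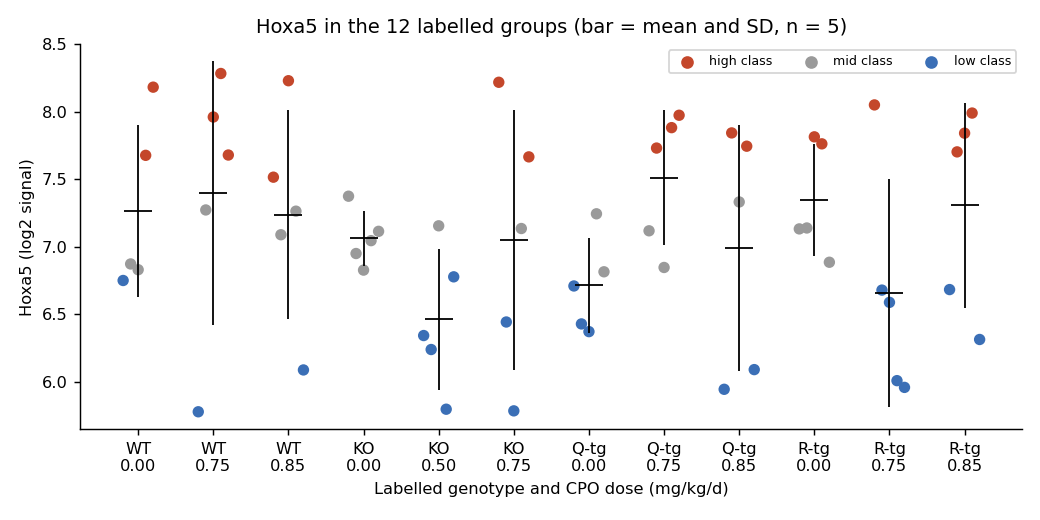
Hoxa5 log2 signal (y axis) of every array in the 12 labelled groups (x axis, genotype and CPO dose in mg/kg/d), with mean and SD (n = 5) as lines and class by colour. WT at 0.75 spans both ends, from 5.78 to 8.28, and KO at 0 stays between 6.83 and 7.37.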

How the data were processed

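Gene expression was measured on Affymetrix Mouse Gene 1.0 ST arrays. The deposited values are on the log2 scale, and the authors obtained them by RMA in oligo under R 2.15.1, per the submitters' processing notes, and were used as deposited. Of 28858 rows, 21789 had 1 gene symbol in GEO's platform annotation, and 21698 of these were found by gene number in the gene table. Arrays were ranked by the single Hoxa5 row. limma 3.58.1 in R 4.3.3 fitted the 3 classes (20 arrays each) to all 60 arrays. Tests were 2-sided, with Benjamini-Hochberg adjustment over the 21788 rows other than Hoxa5 and a threshold of 0.05. The Hoxa5 slope in the middle arrays and the 12 labelled groups were fitted in models of their own. The number of arrays limits the precision.

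Genes were named as the 15 largest differences in each direction among the rows called (1 row per gene, without predicted, RIKEN, microRNA, small nucleolar, olfactory and vomeronasal receptor symbols), the Hox genes, the 4 largest differences of each list described, the genes of the pairs, and the 10 genes most like and most opposed to Hoxa5. The brightest row stood for a gene. The members, the gene lists and the comparison were chosen with earlier results of these data known. Some planned gene pairs are not reported here. Alternatives covered the variance prior, array weights, dim rows, all rows, centring, the replicate block, covariates, class size, ranking gene and leaving out each array. Scripts were tested on simulated data.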

Additional observations from a re-analysis of the deposited data

How the results depend on the processing

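The counts of higher and lower rows (514 and 648) moved by over 1.5 times under several settings. Array weights gave 1187 and 1435, and the lower quartile as covariate 885 and 1208. Low Pon1 as covariate gave 205 and 42, the Gh level as covariate 397 lower, and the labelled groups as covariate 286 higher. Arrays labelled dose 0 alone gave 5 and 0 (4 arrays a class). The 15 highest against the 15 lowest gave 331 higher, and 10 against 10 gave 225 and 221. Settings chosen after seeing the data gave 176 and 27 with high Pon1 arrays only, 65 and 14 with labelled groups as covariate in addition, and, within genotypes, 20 and 9 in KO, 48 and 0 in Q-tg, 32 and 27 in R-tg, and 90 and 4 in WT. The fits on fewer arrays have less power by construction, and for the other settings the cause was not tested.

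Leaving out each of the 40 arrays gave 441 to 584 higher and 481 to 985 lower rows, the 985 without R-tg at 0.75 replicate 2. The replicate block gave 528 and 504, and 0 rows in all 8 dose contrasts. Same-numbered arrays of other groups correlated at -0.0094 on average, so the numbers do not pair the arrays. In the dose contrasts, array weights called 39 rows (WT 0.75) and 1 (R-tg 0.85), and leaving out an array gave 0 to 1 (WT replicate 1 or 5 at 0.75). The slope in the middle arrays gave 1 rising row with array weights.

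Hoxb5, Slc6a5, Lamp5, Mab21l2 and Sncg were called higher in every alternative with a class difference, Hoxb5 from 0.62 to 1.04 and Slc6a5 from 0.86 to 1.39. Hoxa2, Glra1 and Hoxb3 missed the threshold with dose 0 arrays alone. Signs turned for Nr4a2 with dose 0 arrays alone (0.0058), Vrk2 with Pon1 as covariate (0.0068) and with high Pon1 arrays (0.0185), Mid1 (0.0263) and Vrk2 (0.0035) with high Pon1 arrays and labelled groups as covariate, Dbh in KO (-0.0093), Slco1a4 in R-tg (-0.0535) and Prrxl1 in WT (-0.0274). Over 19 planned settings, 2805 of 3070 values of named genes kept direction and side of the threshold, 213 lost the call, 50 gained it and 2 reversed.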
